A study of Mus musculus with 6 samples.

Results

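The set described here holds 9 genes linked to neural and stress-hormone signals to T cells: Chat, Nr3c1, Tsc22d3, Fkbp5, Per1, Zbtb16, Crem, Pde4b and Pde4d. They were chosen by gene symbol, and 8 of the 9 matched a row among the 17744 genes of the authors' table; Chat is not analysed here. The 6 RNA-seq libraries are CD8 T cells sorted from mouse spleen by CD45, CD3 and CD8a. The 3 control libraries carry the genotype wt and the treatment control. For the other 3 the labels give fus irradiation, focused ultrasound that concentrates sound waves on a tissue, under both genotype and treatment. The labels name no strain, age, dose, interval after treatment or pooling of animals, so p-values measure the spread between these libraries, which may be technical.

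Sympathetic nerves in the spleen release noradrenaline, which acts on beta-adrenergic receptors of T cells. These receptors raise cAMP, which activates protein kinase A and the transcription factor CREB. Crem, Per1, Pde4b and Pde4d belong to the genes that CREB can induce, and Pde4 enzymes in turn break cAMP down. A subset of splenic T cells carries Chat, the enzyme that makes acetylcholine, and relays the nerve signal to macrophages. Glucocorticoids, the stress hormones of the adrenal cortex, bind the receptor encoded by Nr3c1, which induces Tsc22d3, Fkbp5, Per1 and, in many tissues, Zbtb16. The series title concerns focused ultrasound and the immune function of the spleen. These genes were taken as possible readouts of either route in its CD8 T cells, and what set their levels was not tested.

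The 4 windows of sequence shown here are the 250 bases before annotated start sites of Per1 and Pde4b, which were lower in every ultrasound library, and of Tsc22d3, whose groups overlapped. RefSeq windows of GRCm38.p6 (the assembly of mm10) were read for 6 of the 9 genes, 12 windows in all, with Chat among them. Capitals mark TGACG, the core of the cAMP response element, and AGAACA, the core of the glucocorticoid response element, each searched on both strands, so that a match on the opposite strand reads CGTCA or TGTTCT. The TGACG core is also part of the full element named below.
Per1, chr11:69098699-69098948, plus strand: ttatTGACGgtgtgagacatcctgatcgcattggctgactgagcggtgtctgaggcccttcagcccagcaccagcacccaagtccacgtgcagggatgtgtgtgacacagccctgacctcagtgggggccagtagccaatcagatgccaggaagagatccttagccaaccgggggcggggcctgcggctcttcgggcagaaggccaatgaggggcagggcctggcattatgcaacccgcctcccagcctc
Per1, chr11:69099902-69100151, plus strand: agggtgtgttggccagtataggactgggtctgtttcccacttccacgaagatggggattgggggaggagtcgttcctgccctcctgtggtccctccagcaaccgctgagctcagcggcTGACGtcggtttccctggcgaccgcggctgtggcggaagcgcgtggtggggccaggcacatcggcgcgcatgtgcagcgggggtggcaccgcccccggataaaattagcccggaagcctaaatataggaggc
Pde4b, chr4:102421305-102421554, plus strand: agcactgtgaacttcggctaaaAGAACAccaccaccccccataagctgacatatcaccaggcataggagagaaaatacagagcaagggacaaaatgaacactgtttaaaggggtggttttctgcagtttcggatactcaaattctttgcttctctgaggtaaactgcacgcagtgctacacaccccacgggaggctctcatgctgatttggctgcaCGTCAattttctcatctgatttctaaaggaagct
Tsc22d3, chrX:140600523-140600772, minus strand: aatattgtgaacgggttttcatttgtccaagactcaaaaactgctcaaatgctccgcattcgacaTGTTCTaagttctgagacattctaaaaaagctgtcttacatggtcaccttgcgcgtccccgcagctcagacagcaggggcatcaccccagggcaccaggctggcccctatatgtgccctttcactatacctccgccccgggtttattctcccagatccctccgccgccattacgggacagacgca
Each Per1 window held 1 TGACG core, starting 246 bases before the start site in the window listed first and 132 bases in the other. Both Per1 windows and the Pde4b window lie inside the annotated span of their gene, so each precedes an internal start site. The Pde4b window held 1 TGACG core at 34 bases and 1 AGAACA core at 228 bases before the start. The Tsc22d3 window held 1 AGAACA core, 185 bases before the start. Of the 12 windows, 5 held a TGACG core and 3 an AGAACA core, and those shown were picked from the windows with a match. The other 3 Pde4b windows held no TGACG core, and 1 Tsc22d3 window not shown held one. Over all 32851 RefSeq windows of this length, 17.8% held a TGACG core and 16.1% an AGAACA core. The full cAMP response element TGACGTCA was in 1.55% of all windows, the full glucocorticoid element, AGAACA and TGTTCT with any 3 bases between them, was in 3 windows, and neither was in the 12 windows of these genes.

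Depth was alike in both groups, at 35024080 to 38113103 recovered reads per library. The ultrasound libraries were not alike: on the first principal component of all genes tested (70.8% of the variance) the controls lay at -15.8 and below, ultrasound 1 at -0.53, and the other ultrasound libraries at 33.2 and 39.7. The summed level of 6 CD8 T cell markers was 2005 to 2095 FPKM in controls and 1715 to 2226 in ultrasound libraries, and Cd8a itself lay between 251 and 314. Monocyte and macrophage markers summed to 345 to 772 FPKM in controls and 1912 to 3290 in ultrasound libraries, with 4 of 8 genes called higher. Neutrophil markers summed to 174 to 543 FPKM in controls and 601 to 2102 in ultrasound libraries, the highest value being ultrasound 1, with 3 of 7 genes called higher. Those 3, Csf3r, Cxcr2 and Mmp9, were lowest in ultrasound 1 among the ultrasound libraries. Over all genes tested, 6.55% were called higher. B cell markers summed to 190 to 294 FPKM in controls, 144 in ultrasound 1 and 661 to 759 in ultrasound 2 and 3, with 0 of 5 tested genes called, and dendritic cell markers to 5.31 to 10.9, 3.38 and 22.3 to 25.8, with 0 of 2 tested genes called. CD4 and regulatory T cell markers (73.4 to 109 FPKM against 106 to 138) and erythroid markers (83.2 to 133 against 55.3 to 112) also had 0 of 5 tested genes called each. No marker with a row was at 0 in every library. The part of other cell types in the values below was not tested, and in bulk samples fewer cells of a type and less RNA per cell cannot be told apart.

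**Figure D1:**
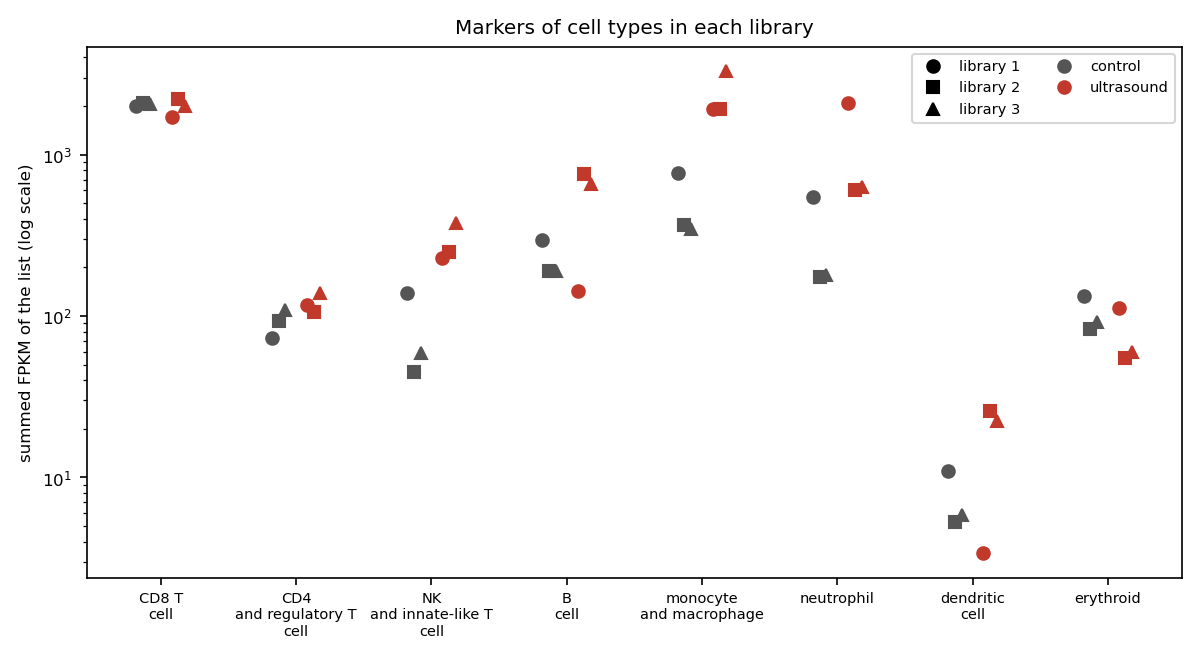
Summed FPKM of 8 lists of cell type markers (log axis) in each control (grey) and ultrasound (red) library; the symbol gives the replicate number. Monocyte and macrophage markers lie at 1912 FPKM or more in all ultrasound libraries and at 772 or less in all controls, while CD8 T cell markers lie between 1715 and 2226 in all 6.

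Levels are given in FPKM, fragments per kilobase of gene scaled to sequencing depth, which allows genes to be compared per length. In controls the order of mean levels was Tsc22d3 (96.0 FPKM), Per1 (33.5), Fkbp5 (25.2), Nr3c1 (12.8), Pde4b (7.63), Crem (1.74), Pde4d (1.21) and Zbtb16 (0.128), and no neighbours in this order overlapped between libraries. In ultrasound libraries Per1, at 14.1 FPKM, lay below Fkbp5, at 34.2. The ranges of Per1 and Nr3c1, of Crem and Pde4d, and of Pde4d and Zbtb16 overlapped there.

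**Figure D2:**
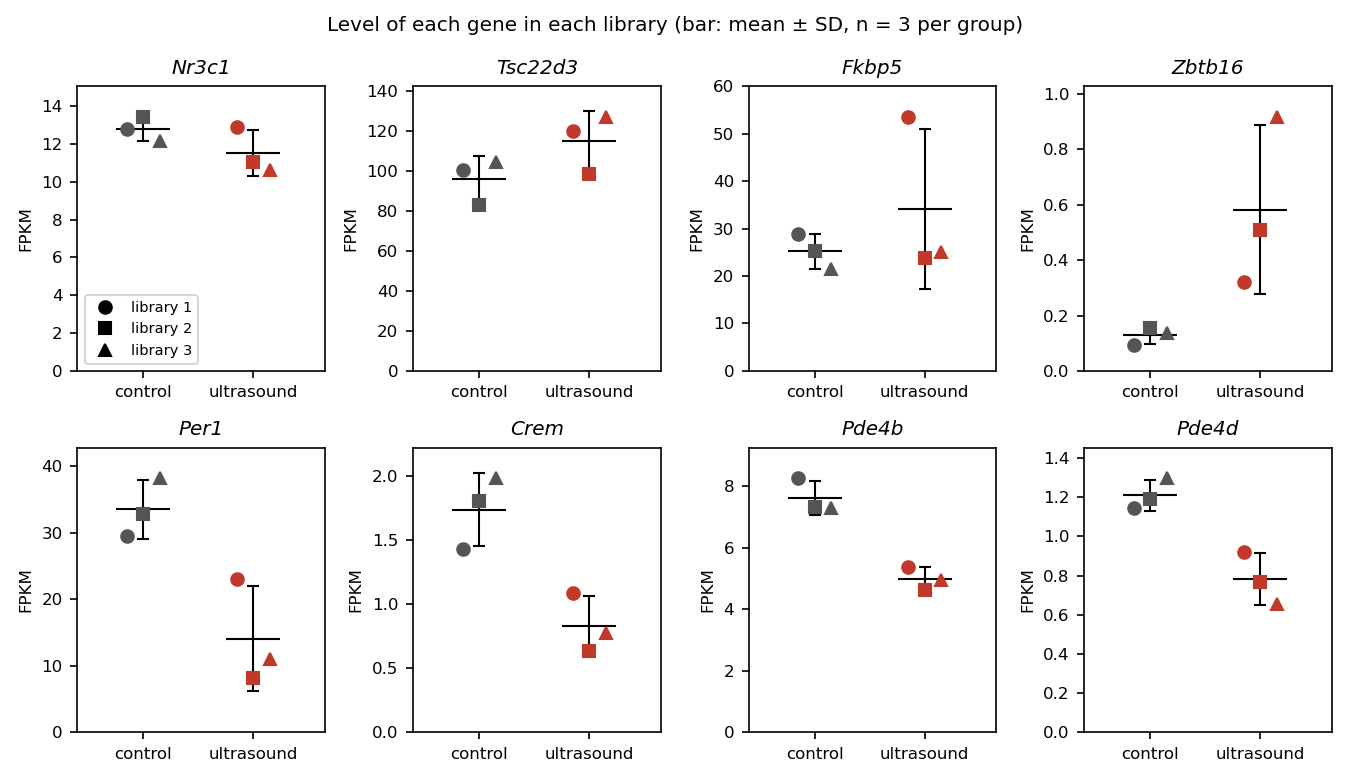
FPKM of the 8 genes (linear axes from 0) in each control (grey) and ultrasound (red) library, with the group mean and SD (n = 3 each). Per1, Crem, Pde4b and Pde4d lie lower and Zbtb16 lies higher in every ultrasound library, and the groups of Nr3c1, Tsc22d3 and Fkbp5 overlap.

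The first comparison asked whether genes inducible by cAMP differed between the groups. All 4 such genes of the set had every ultrasound library below every control. Over all 10655 genes tested, 8.96% were lower in this way. Pde4b passed the test, with 65.4% of its control level on average. Crem, Per1 and Pde4d had mean levels of 47.9%, 42.0% and 64.6% of the control mean without passing. Among genes tested with limma on log2(FPKM + 1), 8.11% had an adjusted p under 0.05 and 1.56% were called lower, and Pde4b was 1 call among the 7 genes of the set tested. These calls were 698 higher and 166 lower, against 281 and 187 with median-of-ratios size factors, with which Pde4b passed too.

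Pde4b (NCBI Gene 18578; chr4:102087332-102607275) encodes a phosphodiesterase that breaks down cAMP and dampens its effect near the T cell receptor. It had 8.27, 7.33 and 7.28 FPKM in control 1, 2 and 3 and 5.39, 4.62 and 4.96 in ultrasound 1, 2 and 3. The values formed 2 tight groups that did not overlap, with 3601 to 6066 reads per library. The group means were 7.63 ± 0.556 and 4.99 ± 0.386 FPKM (SD, n = 3 each). Pde4b fell by 0.53 on the log2(FPKM + 1) scale, with standard error 0.10 and limma adjusted p 0.0341. The call depended on single libraries. Leaving out any 1 control, ultrasound 2 or ultrasound 3 raised the adjusted p to between 0.0878 and 0.160. Without ultrasound 1 it was 0.00221, where 53.7% of all genes were called and 19.7% were called lower. The log2 change stayed between -0.57 and -0.47 in these 6 fits. With all libraries and no filter on low values the adjusted p was 0.0619.

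Pde4d (NCBI Gene 238871; chr13:108654177-109955969) encodes a related phosphodiesterase. It had 1.14, 1.19 and 1.30 FPKM in the control libraries and 0.920, 0.766 and 0.657 in ultrasound 1, 2 and 3. Every ultrasound library was below every control, at 1335 to 2440 reads per library. The log2(FPKM + 1) change was -0.31 (95% interval -0.57 to -0.058) with limma adjusted p 0.111. Pde4d entered that test only through its controls, since all ultrasound libraries lay under the limit of 1 FPKM. On recovered reads, where the scale does not shrink low genes, voom put the log2 change at -0.77 (standard error 0.14, adjusted p 0.0428), with Pde4d again entering through its controls. Over genes with at least 10 reads in every library, a limit that Pde4d met in both groups, the adjusted p was 0.0423, where 2.01% of genes were called lower. Over the 10655 genes voom called 3 genes of the set, Pde4b, Pde4d and Crem, all lower, where 5.33% of all genes were called and 2.35% were called lower. Like Pde4d, Crem entered through its controls. The fit over genes with at least 10 reads in every library called the same 3.

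Crem (NCBI Gene 12916, on chromosome 18) encodes activators and repressors of cAMP-responsive transcription, among them ICER, an inducible repressor made from an internal promoter. It had 1.43, 1.80 and 1.98 FPKM in the control libraries and 1.09, 0.632 and 0.774 in ultrasound 1, 2 and 3. Ultrasound 1 was the highest of the ultrasound libraries and still below control 1, the lowest control. The log2(FPKM + 1) change was -0.58 (95% interval -0.91 to -0.25) with limma adjusted p 0.0519, just over the threshold. On 216 to 638 recovered reads per library, voom put it at -1.22 (standard error 0.24, adjusted p 0.0450). Crem reached 1 FPKM in 4 libraries, the controls and ultrasound 1, so it entered both tests through its controls. With voom over genes with at least 10 reads in every library, a limit that Crem met in both groups, the adjusted p was 0.0450 too. Levels by gene cannot tell the ICER form from the others.

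Per1 (NCBI Gene 18626; chr11:69095108-69109965) encodes a repressor of the circadian clock that both cAMP and glucocorticoids can induce. It had 29.5, 32.9 and 38.2 FPKM in the controls, 23.0 in ultrasound 1, and 8.19 and 11.0 in ultrasound 2 and 3. It had the lowest log2 change of the set, and its ultrasound libraries were far apart. Relative to the control mean, ultrasound 1 had 68.6% and ultrasound 2 and 3 had 24.4% and 32.9%. The log2(FPKM + 1) change was -1.31 (95% interval -2.11 to -0.52) with limma adjusted p 0.0594. Without ultrasound 1 it was -1.71 with adjusted p 0.000568, where 19.7% of all genes were called lower. Ultrasound 1 alone against the controls gave -0.52, a value with no replicate on the ultrasound side. The labels give no time of day for the collection of the spleens.

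In the authors' deposited table, made with DESeq2, all 4 genes have q under 0.05: 1.31e-06 for Pde4b, 0.000323 for Pde4d, 0.000584 for Crem and 0.00403 for Per1. At this threshold that table calls 12.3% of its genes, and 4.98% lower.

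The genes with the pattern most like Per1 over the 6 libraries, by Pearson's r on log2(FPKM + 1), were Socs1 (0.999), a feedback inhibitor of cytokine signalling, 5430416N02Rik (0.998) and Plk3 (0.997), a stress-responsive kinase. Socs1 had 38.2, 40.2 and 45.0 FPKM in the control libraries and 30.3, 13.8 and 16.8 in ultrasound 1, 2 and 3. With 6 points and 10655 genes, values this high are a description of likeness and carry no test.

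The second comparison asked whether genes of the glucocorticoid route differed. Nr3c1, Tsc22d3 and Fkbp5 did not pass, and their groups overlapped. Mean levels of the receptor's targets lay on both sides of the controls, at 120% of the control mean for Tsc22d3 and 136% for Fkbp5, against 42.0% for Per1. For Fkbp5, ultrasound 1 had 213% and ultrasound 2 and 3 had 94.4% and 99.8%. Zbtb16, under 1 FPKM in every library and not tested with limma, was at 454%.

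Nr3c1 (NCBI Gene 14815, on chromosome 18) encodes the glucocorticoid receptor. It had 12.8, 13.5 and 12.1 FPKM in the control libraries and 12.9, 11.0 and 10.6 in ultrasound 1, 2 and 3. Ultrasound 1 lay within the controls and the other ultrasound libraries lay below them. The log2(FPKM + 1) change was -0.14 (95% interval -0.39 to 0.10) with limma adjusted p 0.351. Without ultrasound 1 it was -0.22 with adjusted p 0.0438, where 53.7% of all genes were called.

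Tsc22d3 (NCBI Gene 14605; chrX:140539528-140600522) encodes GILZ, a widely used marker of glucocorticoid action in lymphocytes. It had 100.3, 83.2 and 105 FPKM in the control libraries and 120, 98.2 and 127 in ultrasound 1, 2 and 3. Ultrasound 2 lay within the controls and the other ultrasound libraries lay above them. The log2(FPKM + 1) change was 0.26 (95% interval -0.068 to 0.58), with limma adjusted p 0.234, at 11761 to 19564 reads per library. With median-of-ratios size factors it was 0.13. That scaling moved the median change of all genes from 0.087 to -0.023, and no gene of the set changed sign with it.

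Fkbp5 (NCBI Gene 14229; chr17:28398753-28486149) encodes a co-chaperone that lowers the receptor's affinity for hormone and is itself induced by it. It had 28.8, 25.4 and 21.4 FPKM in the controls, 53.6 in ultrasound 1, and 23.8 and 25.1 in ultrasound 2 and 3. Ultrasound 1 alone stood apart, at 213% of the control mean, with 7330 reads against 2930 to 3952 in the other 5 libraries. The log2(FPKM + 1) change was 0.34 (95% interval -0.39 to 1.06) with limma adjusted p 0.459. Without ultrasound 1 it was -0.031 (95% interval -0.31 to 0.25, adjusted p 0.844). Ultrasound 1 alone against the controls gave 1.07, a value with no replicate on the ultrasound side. The genes most like Fkbp5 over the libraries were Slc25a24 (r = 0.990), a mitochondrial carrier, Hsd17b12 (0.990), a fatty acid elongation enzyme, and Fndc10 (0.986). All 3 were highest in ultrasound 1, with 9.18, 42.4 and 3.96 FPKM there.

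Zbtb16 (NCBI Gene 235320; chr9:48651797-48836225) encodes PLZF, the factor that sets the program of innate-like T cells. It had 0.0933, 0.153 and 0.138 FPKM in the control libraries and 0.322, 0.507 and 0.918 in ultrasound 1, 2 and 3. Every ultrasound library was above every control, as were those of 21.8% of all genes in the table. The mean was 4.54 times that of the controls, and the values rest on 27, 44 and 40 control reads and on 93, 156 and 287 in ultrasound 1, 2 and 3. With all libraries under 1 FPKM, Zbtb16 was not in the test over 10655 genes. With voom on recovered reads over genes with at least 10 reads in every library, its log2 change was 1.95 (95% interval 0.83 to 3.08) with adjusted p 0.0632. That fit called 4.84% of its genes, 2.83% higher. The authors' deposited table gives Zbtb16 a q of 0.000625 and calls 7.3% of its genes higher. Of the list of NK and innate-like T cell markers, 4 of 7 had a row and 3 were tested. Limma called 2 of these higher, Klrb1c and Tyrobp, beside 6.55% of all genes tested. Klra8, the other tested gene, did not pass (limma adjusted p 0.254), and its groups overlapped. Its FPKM was 1.13, 0.436 and 1.68 for control 1, 2 and 3. Ultrasound 1 lay within that range at 0.772, while ultrasound 2 reached 3.87 and ultrasound 3 reached 3.63. Klrb1c, an NK receptor also found on NKT cells, rose from 1.14, 1.96 and 1.60 FPKM to 5.15, 8.97 and 8.20, with a log2(FPKM + 1) change of 1.70 and limma adjusted p 0.0297. Ncr1, an NK cell receptor under the limit for the test, had 0.133, 0.153 and 0.228 FPKM in the controls, 0.533 in ultrasound 1 and 5.85 and 5.05 in ultrasound 2 and 3. The list summed to 45.2 to 139 FPKM in controls and 228 to 376 in ultrasound libraries, most of it from Tyrobp, which myeloid cells express too. The part of such cells in the level of Zbtb16 was not tested.

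**Figure D3:**
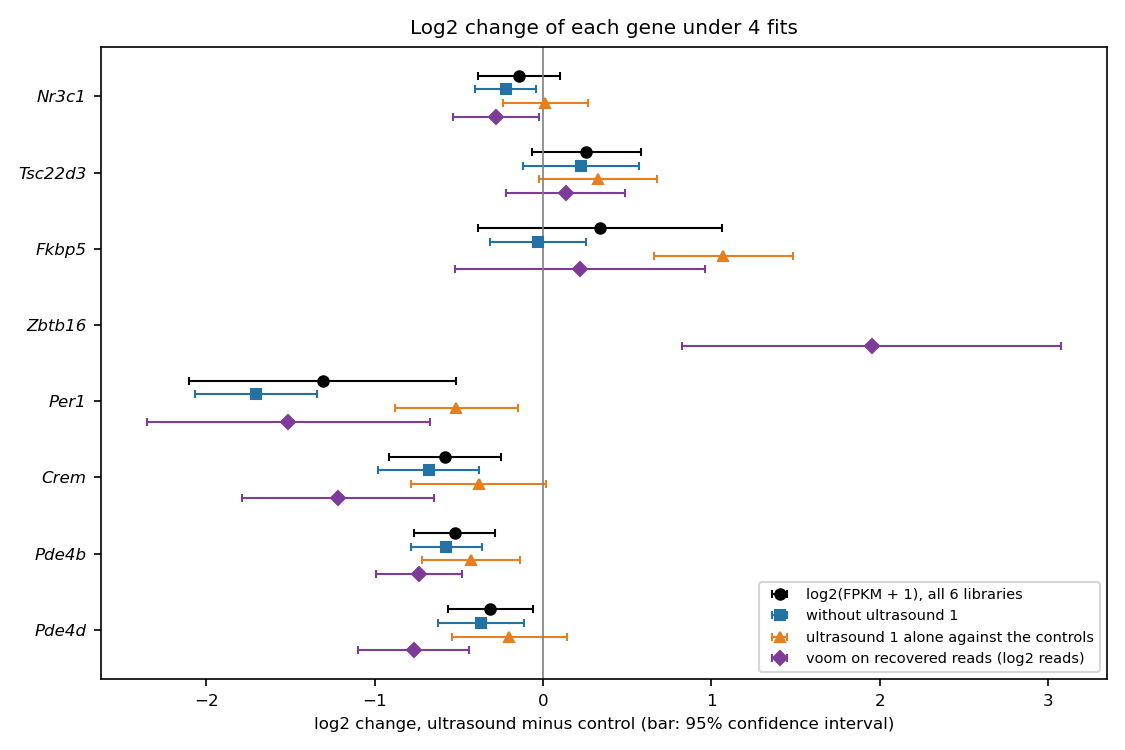
Log2 change (ultrasound minus control) of each gene with its 95% confidence interval under 4 fits: limma on log2(FPKM + 1) with all 6 libraries, the same without ultrasound 1, ultrasound 1 alone against the controls, and voom on recovered reads of genes with at least 10 reads in every library. The intervals for ultrasound 1 alone assume that this library varies like the controls. Fkbp5 lies at 1.07 in ultrasound 1 alone and at -0.031 without it, Per1 lies at -0.52 and -1.71, and Zbtb16 is in the voom fit only, at 1.95.

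The wider routes were described from 7 lists, 102 genes outside the set in all, of which 83 had a row and 64 were tested. Of these, 4 were called higher and 8 lower, with a median log2 change of 0.0025, beside 6.55% higher, 1.56% lower and a median of 0.087 over all genes. Of the 8 calls lower, 6 were cAMP-inducible genes, and of the 4 calls higher, 3 were genes of the adrenergic list.

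Of 10 further cAMP-inducible genes, 6 fell, 0 rose and 4 did not pass, with a median log2 change of -1.39. Over all genes tested, 1.56% were called lower. Nr4a2, an orphan nuclear receptor induced by cAMP and by the T cell receptor, fell from 21.6, 28.5 and 26.5 FPKM to 7.79, 1.11 and 1.92 in ultrasound 1, 2 and 3 (log2 change -2.80, limma adjusted p 0.0311). Fosb, an immediate early transcription factor, fell from between 278 and 285 FPKM to 110, 22.9 and 52.4 (-2.44, adjusted p 0.0385). Sik1, a kinase that restrains CREB coactivators, fell from between 85.4 and 106 FPKM to 45.7, 18.4 and 31.8 (-1.65, adjusted p 0.0316). These are also genes that T cell receptor signals and handling induce, and genes of this kind were known to be lower in these data when the list was drawn up. Junb fell by 1.47 on the log2 scale (adjusted p 0.0407), Nr4a3 by 1.40 (0.0297) and Rgs2 by 0.81 (0.0333). In 11 of the 14 genes of the list, the 4 of the set included, ultrasound 1 lay below every control and above ultrasound 2 and 3, an order that 6.98% of all genes tested had. The 6 genes also had adjusted p under 0.05 with median-of-ratios size factors and with voom. Without control 1 only Nr4a3 did, without control 2, control 3, ultrasound 2 or ultrasound 3 none did, and without ultrasound 1 all 10 did, where 53.7% of all genes were called and 19.7% were called lower.

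Of 19 genes of adrenergic receptors, their regulators and catecholamine enzymes, 12 had a row and 8 were tested, with 3 called higher and 0 lower. Over all genes tested, 6.55% were called higher and 1.56% lower. Adrb1, a beta-adrenergic receptor, had 1.03, 0.659 and 0.766 FPKM in the controls, against 1.09, 1.48 and 2.08 in ultrasound 1, 2 and 3. Every ultrasound library was above every control, as in 2755 of all 10655 genes tested. The log2(FPKM + 1) change of Adrb1 was 0.47 with limma adjusted p 0.118. Adrb1 entered that test through its ultrasound libraries, since control 1 alone of the controls reached 1 FPKM. Adra1d, Adra2a and Adra2b lay under 1 FPKM in every library. Grk5, a kinase that desensitises such receptors, rose from 1.15, 1.03 and 1.01 FPKM to 2.999, 2.88 and 4.34 (1.08, limma adjusted p 0.0297). Arrb1, an arrestin that uncouples them, rose from between 7.39 and 7.54 FPKM to 11.5, 14.3 and 17.3 (0.84, adjusted p 0.0311). Grk5 and Arrb1 also passed with median-of-ratios size factors and with voom, Grk5 but not Arrb1 passed without control 1, and neither passed without control 2, control 3, ultrasound 2 or ultrasound 3. These genes rose in the libraries in which monocyte and macrophage markers were higher, Lyz2 lying at 207 to 499 FPKM in controls and 1430 to 2721 in ultrasound libraries, and the part of myeloid cells was not tested.

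Between receptor and target, 0 of 15 genes of cAMP production, protein kinase A and CREB passed with limma. Only 1 had an unadjusted limma p under 0.05, beside 3321 of all 10655 genes tested. Voom called 0, and the authors' deposited table calls Adcy6 lower. Gnai2, an inhibitory G protein subunit, had the largest change (0.50, limma adjusted p 0.0959), followed by Creb1 (-0.40, 0.207), Prkaca (0.36, 0.207) and Prkar2a (0.28, 0.217). Creb1 itself had 13.1 to 15.2 FPKM in controls, 14.6 in ultrasound 1 and 9.37 and 8.29 in ultrasound 2 and 3. Without ultrasound 1, 6 of the 15 passed, 3 higher and 3 lower, where 53.7% of all genes passed. Among the other cAMP phosphodiesterases, 1 of 5 tested passed with limma, beside 8.11% of all genes tested. Pde1b rose from 13.4, 10.5 and 13.2 FPKM to 19.5, 17.0 and 19.3 (0.56, adjusted p 0.0420), opposite in direction to Pde4b. It did not pass with median-of-ratios size factors or voom, nor without any 1 control, ultrasound 2 or ultrasound 3. Pde3b, which had the highest level of the phosphodiesterases after Pde2a, had 24.8 to 27.1 FPKM in controls and 26.2, 17.4 and 14.0 in ultrasound 1, 2 and 3 (-0.45, adjusted p 0.188), and Pde8a and Pde7a changed by 0.28 and -0.13 (adjusted p 0.201 and 0.485).

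On the cholinergic side, 12 of 22 listed genes besides Chat had a row, 7 lay under 1 FPKM in every library, and 0 of the 5 tested passed with limma. Of the 5, 1, Chka, had an unadjusted limma p under 0.05, beside 3321 of all 10655 genes tested. Chka, which phosphorylates choline for phospholipid synthesis, had 2.55, 2.74 and 2.84 FPKM in the control libraries and 1.97, 1.96 and 1.74 in ultrasound 1, 2 and 3 (-0.36, limma adjusted p 0.0698). Voom and the authors' deposited table call Chka lower. The nicotinic receptor subunits Chrnb2 and Chrnb1 changed by 0.15 and 0.12 and the choline transporter Slc44a2 by 0.079, with adjusted p from 0.403 to 0.719, and Slc44a2 changed sign with median-of-ratios size factors.

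Of the receptor's chaperones and cofactors, 1 of 9 tested was called lower and 0 higher. Limma called 1.56% of all genes tested lower and 6.55% higher. Hsp90aa1, the inducible form of the chaperone that holds the receptor ready for hormone, fell from 204, 319 and 387 FPKM to 164, 97.7 and 96.1 (-1.34, limma adjusted p 0.0441), with a wide spread among the controls. Hsp90aa1 also passed with median-of-ratios size factors and with voom, but not without control 2, control 3, ultrasound 2 or ultrasound 3. Hsp90ab1, the constitutive form of that chaperone, Ptges3, a co-chaperone, and Nrip1 changed by -0.48, -0.42 and -0.39, with adjusted p 0.0762, 0.146 and 0.170. Of 13 further glucocorticoid-inducible genes, which share Dusp1 with the cAMP list, Errfi1, an inhibitor of growth factor receptors, fell from 8.22, 9.64 and 11.7 FPKM to 6.76, 4.20 and 4.53 (-0.83, adjusted p 0.0475). Errfi1 passed with voom too, but not with median-of-ratios size factors, nor without any 1 control, ultrasound 2 or ultrasound 3. The other 12 did not pass with limma. Dusp1 (-1.38, adjusted p 0.107), Nfkbia (-1.13, 0.0529) and Zfp36 (-0.73, 0.0749) had the largest changes of these, all 3 being genes that T cell activation induces as well. The authors' deposited table calls 5 of the 13 lower, Errfi1 among them, beside 4.98% of its genes. Without ultrasound 1, 6 of the 13 were called lower and 0 higher, where 19.7% of all genes were called lower.

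**Figure D4:**
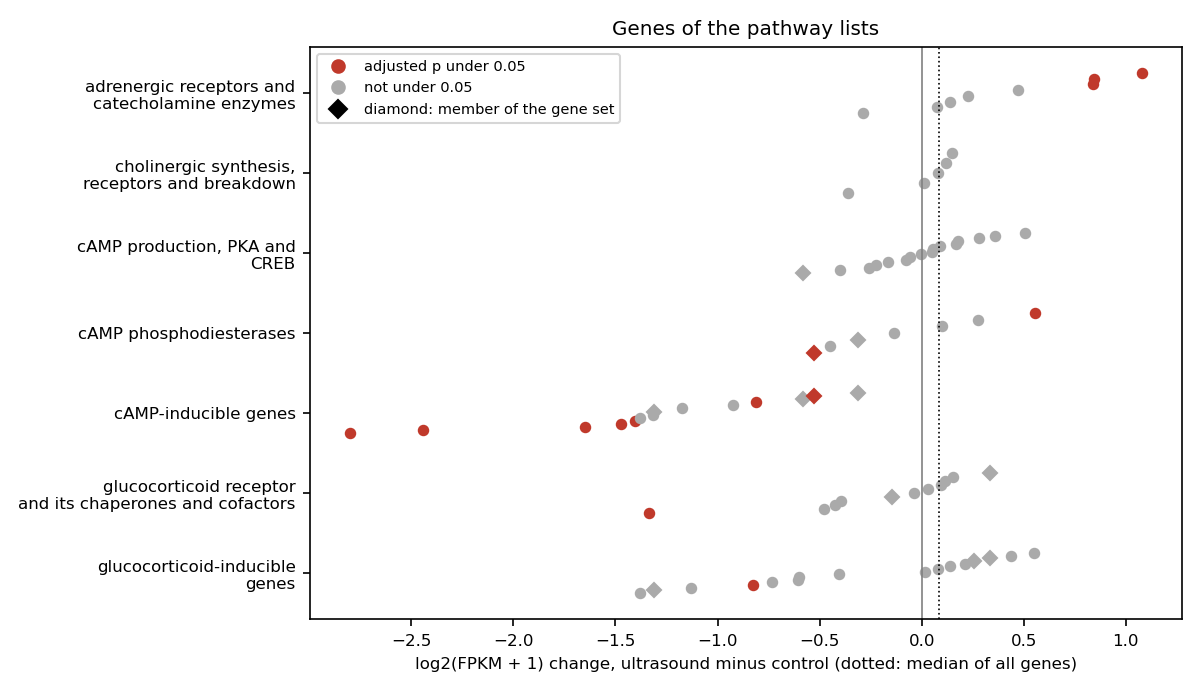
Log2(FPKM + 1) change (ultrasound minus control) of each tested gene of the 7 lists; red marks an adjusted p under 0.05 and diamonds the genes of the set. All 14 cAMP-inducible genes lie below 0, with a median of -1.31, and the 16 glucocorticoid-inducible genes lie on both sides of it, 8 above and 8 below, of which Il7r and Bcl2l11 change side with median-of-ratios size factors.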

How the data were processed

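RNA was sequenced from sorted splenic CD8 T cells, 3 control and 3 ultrasound libraries, grouped and numbered by sample title. The submitters' processing notes name HISAT2, HTSeq, DESeq2, R 3.2.0 and mm10 without role or order; strand use in counting is not given in the sources used here. The design text and the extraction protocol name different versions of the library kit. The authors deposited FPKM per library; the signal columns are the authors' mean DESeq2 normalized counts; the authors' fold, a ratio of group means, their log2 fold change and their p-value and q-value come from the same comparison, per the file headers. A deposited subset of the table was not used.

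The main test, limma 3.58.1 with a mean-variance trend and robust variances, was run in R 4.3.3 and took log2(FPKM + 1) over genes with at least 1 FPKM in 3 libraries, with Benjamini-Hochberg adjustment over all genes and a threshold of 0.05. The pseudocount of 1 understates changes of low genes. Whole reads were recovered from the FPKM columns and the authors' group means: 100% of 42752 values under 200 reads lay within 0.05 of a whole number. In simulated data with 200 genes changed 3 fold, the ultrasound against control test recovered 100% at a dispersion of 0.01 over 10670 genes and 97% at 0.05 over 10660 genes, with 14 and 11 false calls. The simulation changed only well-covered genes and drew the libraries of a group alike, which the ultrasound libraries here were not. These shares therefore need not hold for the real data. Python 3.11.15 was used for other computations. Intervals cover the spread between libraries.

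The members and lists were chosen with earlier results of these data known. Besides the members, the text names up to 4 tested genes of each list with the largest change and the 3 genes most correlated with the members of highest and lowest change; Adra1d, Adra2a and Adra2b are named for their levels, and Adcy6, Nr4a3, Rgs2, Klf9, Mt2, Pde2a and the marker genes were named after their values were seen. Some genes of the adrenergic list are counted but not reported here. Crem and Pde4b overlap other genes with rows (Gm6225; Gm52667 and Gm52668), each at 0.118 FPKM or less, and reads of overlapping genes cannot be told apart here. Hsp90aa1 and Hsp90ab1, and Mt1 and Mt2, are close copies whose reads may be shared. Alternatives covered the pseudocount, filters, scaling, the robust option, voom on recovered reads, a replicate block, libraries left out and the authors' deposited values. Deviations from the group means correlated at r = -0.041, 0.051 and 0.058 between same-numbered libraries, and at -0.268 to 0.131 between differently numbered ones. With 3 libraries per group, these values cannot tell whether the numbers pair the samples.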

Additional observations from a re-analysis of the deposited data

How the results depend on the processing

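Counts are of all genes, of the set and of the listed genes outside it; they were 864, 1 and 12 in the main analysis. With no filter on low values and with the replicate block they were 0, 0 and 0, with 4216 and 3249 genes at an unadjusted p under 0.05, 5 and 4 of them in the set. Median-of-ratios size factors gave 468 genes, 281 higher and 187 lower, and voom gave 568, with 3 genes of the set. Voom on genes with at least 10 reads in every library, added after the data were seen, also gave 3 of the set. Ultrasound 1 alone against the controls gave 49, 0 and 4, assuming that this lone library varies like the controls, and the authors' deposited values gave calls for 2179, 5 and 24 genes. Leaving out 1 library gave from 0 to 5727 genes, from 0 to 5 of the set and from 0 to 37 listed genes. The highest counts came without ultrasound 1; control 1 left out gave 567, 0 and 4, and each of the other 4 gave 0, 0 and 0, with 1962 to 2154 genes at an unadjusted p under 0.05, 3 or 4 of them in the set. The cause was not tested. Fkbp5 changed sign without ultrasound 1, ranging from -0.031 to 0.54 with 1 library left out, and Nr3c1 with ultrasound 1 alone (0.013). Pde4b lost its call under 8 of 16 alternatives and kept its direction in all 16, with adjusted p from 1.31e-06 to 0.160. Per1, Crem and Pde4d kept their direction in the 16, 15 and 15 alternatives that tested them, and passed in 2, 4 and 4. Tsc22d3 did not pass in any of 16. Zbtb16 has under 50 reads in each control, which limits its precision.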

Other observations

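Among 16 tested glucocorticoid-inducible genes, 6 had their highest level of all libraries in ultrasound 1: Fkbp5, Klf9, Il7r, Mt1, Mt2 and Bcl2l11. Over all genes tested the share was 21.8%. Klf9, a transcription factor that glucocorticoids induce in many cell types, had 2.45, 3.15 and 3.45 FPKM in the controls, 6.15 in ultrasound 1 and 0.952 and 0.954 in ultrasound 2 and 3. Mt2, a metallothionein, had 1.43, 1.39 and 1.84 FPKM in the controls, 5.57 in ultrasound 1 and 1.63 and 0.472 in ultrasound 2 and 3. Klf9 and Mt2 were picked after their values were seen. Per1, Dusp1, Zfp36, Nfkbia and Errfi1 of the same list had ultrasound 1 below every control instead. Neutrophil markers summed to their highest level in ultrasound 1 too, S100a9 lying at 886 FPKM there and at 78.2 to 335 in the other libraries. S100a8, Retnlg and Ngp were also highest there. Csf3r, Cxcr2 and Mmp9, the neutrophil markers called higher, were instead lowest there among the ultrasound libraries. Csf3r lay at 24.8, 42.3 and 50.8 FPKM in ultrasound 1, 2 and 3. The part of neutrophils in the levels of the glucocorticoid-inducible genes was not tested.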
